A study of Mus musculus with 6 samples.

Results

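The 10 genes described here carry nutrient and stress signals to the kinase mTOR, and they were followed in CD4+CD8+ double-positive (DP) thymocytes with and without a Cre transgene directed at Paxbp1. They are the 3 sestrins Sesn1, Sesn2 and Sesn3, the GATOR1 subunit gene Depdc5, the tuberous sclerosis complex genes Tsc1 and Tsc2, the GTPase gene Rheb, and the mTOR complex genes Mtor, Rptor and Rictor. They were chosen by symbol from the deposited gene table, which holds 22322 genes. All 10 were listed there, and all 10 passed the filter on low counts that left 11488 genes for testing.

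Bulk RNA was sequenced from DP thymocytes that had been sorted by flow cytometry from the mouse thymus, in 3 libraries of each genotype. The control libraries were labelled WT (Paxbp1fl/fl) and the others Paxbp1 cKO (Paxbp1fl/fl Lckcre), and no animal was treated. Both genotypes carry Paxbp1 alleles with loxP sites around exon 8 on a C57BL/6 background, and the controls were littermates whose label names no Cre. Mice were 4 to 7 weeks old. The Cre is driven by the Lck promoter, which is active in developing T cells from before the DP stage. The comparison asks how messenger RNA levels of these regulators in DP thymocytes differ between the genotypes.

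mTOR is a kinase that works in a pair of complexes. In mTORC1, which is built on Raptor (the product of Rptor), it promotes protein synthesis and growth when amino acids and growth factors are present. In mTORC2, which is built on Rictor, it phosphorylates kinases of the AKT and SGK families. Amino acids act through the Rag GTPases on the lysosome, which GATOR1 switches off. GATOR2 restrains GATOR1, and sestrins bind GATOR2 and so dampen mTORC1. Growth factors act through the TSC complex, in which Tsc1 stabilises Tsc2 and Tsc2 inactivates Rheb, the GTPase that switches mTORC1 on. Sestrin genes are known to be induced by stress through p53, FOXO factors and ATF4. In developing thymocytes mTOR signalling goes with the growth and division that precede the DP stage.

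Start regions are shown first for the sestrins, which p53, FOXO factors and ATF4 are known to induce. Start regions of Tsc2 and Rheb, the inhibitor and the activator of mTORC1 whose counts are set side by side, are shown as well. They are the 250 bases before each RefSeq transcription start (assembly GRCm38.p6), written 5′ to 3′ on the strand of the gene. Capitals mark a match to a searched motif on either strand. Those present here are the CCAAT box (CCAAT, read as ATTGG on the other strand), the E-box CACGTG and the p53 decamer. Sesn1 has 2 annotated start regions, at chr10:41810324-41810573 and chr10:41887189-41887438 (plus strand). The Sesn2 region is chr4:132510457-132510706 (minus strand), that of Sesn3 chr9:14276051-14276300 (plus strand), that of Tsc2 chr17:24632628-24632877 (minus strand) and that of Rheb chr5:24842362-24842611 (minus strand).
Sesn1 start region 1: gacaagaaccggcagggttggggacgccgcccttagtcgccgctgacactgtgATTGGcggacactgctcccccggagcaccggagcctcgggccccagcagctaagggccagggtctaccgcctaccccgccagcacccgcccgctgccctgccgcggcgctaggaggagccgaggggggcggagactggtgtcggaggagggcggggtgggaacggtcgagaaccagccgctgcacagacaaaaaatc
Sesn1 start region 2: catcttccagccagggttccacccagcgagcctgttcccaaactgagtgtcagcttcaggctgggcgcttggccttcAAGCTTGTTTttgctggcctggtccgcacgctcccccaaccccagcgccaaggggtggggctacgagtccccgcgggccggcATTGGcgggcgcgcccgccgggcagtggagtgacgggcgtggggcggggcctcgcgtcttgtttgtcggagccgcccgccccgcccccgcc
Sesn2: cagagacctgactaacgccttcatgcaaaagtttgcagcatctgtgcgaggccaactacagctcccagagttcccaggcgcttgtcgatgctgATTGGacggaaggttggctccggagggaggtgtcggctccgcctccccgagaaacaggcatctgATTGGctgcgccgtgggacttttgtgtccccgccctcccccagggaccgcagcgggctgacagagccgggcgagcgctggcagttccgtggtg
Sesn3: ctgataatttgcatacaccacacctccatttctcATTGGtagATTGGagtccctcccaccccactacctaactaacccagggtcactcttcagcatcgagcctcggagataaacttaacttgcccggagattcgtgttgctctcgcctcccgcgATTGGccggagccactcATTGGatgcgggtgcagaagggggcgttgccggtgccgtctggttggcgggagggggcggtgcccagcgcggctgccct
Tsc2: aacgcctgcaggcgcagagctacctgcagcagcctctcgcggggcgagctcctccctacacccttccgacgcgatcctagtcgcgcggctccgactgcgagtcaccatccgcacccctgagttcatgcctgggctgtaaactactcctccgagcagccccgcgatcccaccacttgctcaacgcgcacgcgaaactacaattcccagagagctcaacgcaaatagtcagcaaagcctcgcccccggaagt
Rheb: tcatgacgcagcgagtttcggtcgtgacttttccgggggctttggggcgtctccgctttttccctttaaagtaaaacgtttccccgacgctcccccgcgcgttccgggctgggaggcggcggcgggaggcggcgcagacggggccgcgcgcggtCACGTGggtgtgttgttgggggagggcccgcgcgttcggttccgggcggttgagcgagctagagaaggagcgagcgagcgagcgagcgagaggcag

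Each search covered these 250 bases and the 50 after the start, and no motif match overlapped another. A CCAAT box was found in all 4 sestrin windows and in 6 of the 11 windows of the 10 genes, the others being those of Mtor and Rictor, against 37.4% of the 32851 windows in the table. The p53 decamer was found in start region 2 of Sesn1 alone among the 11, 173 to 164 bases before the start, against 8.36% of all windows. The E-box was found in the Rheb window alone, 96 to 91 bases before the start, against 7.15% of all windows. The forkhead element GTAAACA occurred 23 to 29 bases after the start in region 1 of Sesn1, which lies outside the bases printed, against 3.65% of all windows. Neither the ATF4 element TGATGNAA (3.97% of all windows) nor the CRE TGACGTCA (1.79%) was found in the 11 windows. None of these motifs was found in the windows of Tsc2, Tsc1, Depdc5 and Rptor. Such a match describes the letters and is not a measured binding site. The p53 search asked for a single decamer, and no sequence outside these windows, such as introns farther on, was searched.

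The libraries held 18963775 to 26252248 counts. A single count made 0.0388 to 0.0520 CPM (counts per 1000000 counts, scaled by TMM factors of 0.982 to 1.01). Paxbp1 itself was at 40.1, 16.3 and 15.5 CPM in the control libraries and at 38.8, 47.1 and 49.6 CPM in the libraries labelled cKO (log2 fold change 0.92, edgeR adjusted p = 0.0977), so that control library 1 lay among the libraries labelled cKO. A count over the whole gene is not a measure of exon 8, and it does not check the labels. All 8 DP thymocyte markers had lower estimates in the libraries labelled cKO and 3 of them (Cd8b1, Rag1, Cd3e) fell, with summed levels of 8366 to 10043 CPM in controls and 5931 to 7170 CPM in cKO. Of 15 macrophage markers 10 could be tested and 5 rose, with summed levels of 16.0 to 41.7 CPM in controls and 57.7 to 78.1 CPM in cKO. Adgre1, the gene of the macrophage antigen F4/80, had 0 counts in every control library and 2.28, 2.19 and 2.399 CPM in cKO. Of 5 early thymocyte markers 3 rose (Il2ra, Hes1, Dtx1), with summed levels of 78.0 to 118 CPM against 137 to 164 CPM. The other markers of that list had lower estimates (log2 fold change -0.93 for Kit and -0.31 for Ptcra, neither called), and most of the difference in the sum was Hes1, at 9.44, 5.395 and 8.65 CPM in controls and 72.7, 33.3 and 56.2 CPM in cKO. The only B cell marker that could be tested, Cd79b, fell. Over all 11488 genes tested, 4.47% rose and 5.89% fell by edgeR. Of 5 mature single-positive, 5 dendritic and 5 erythroid markers, 4, 1 and 5 could be tested, respectively. None of these was called by edgeR, and the summed levels of each list overlapped between genotypes. The part of these cell type markers in the results that follow was not tested. In bulk samples, fewer cells of a type and less RNA per cell cannot be told apart.

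Among the 10 genes, Tsc2 fell in the libraries labelled cKO and the other 9 did not pass the test. A gene was called where edgeR's quasi-likelihood test gave an adjusted p below 0.05 over all 11488 genes. That was 1 of 10, against 10.4% of all genes tested (4.47% higher and 5.89% lower). At an unadjusted p below 0.05 there were 5 of the 10, against 27.9% of all genes. The estimate was higher in cKO for Sesn2, Rheb, Mtor and Rictor and lower for the other 6, with a median log2 fold change of -0.09 against -0.0017 over all genes. The 3 cKO libraries lay wholly above the 3 controls for Rheb and Mtor and wholly below them for Sesn1, Tsc2 and Rptor, which is 5 of 10 against 33.0% of all genes (15.7% higher and 17.3% lower). None of the 10 was called with an absolute log2 fold change above 1, against 2.76% of all genes (1.53% higher and 1.23% lower). With DESeq2 as the test 4 of the 10 were called, Sesn2 and Rheb higher and Tsc2 and Rptor lower, against 16.7% of the genes it tested.

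**Figure D1:**
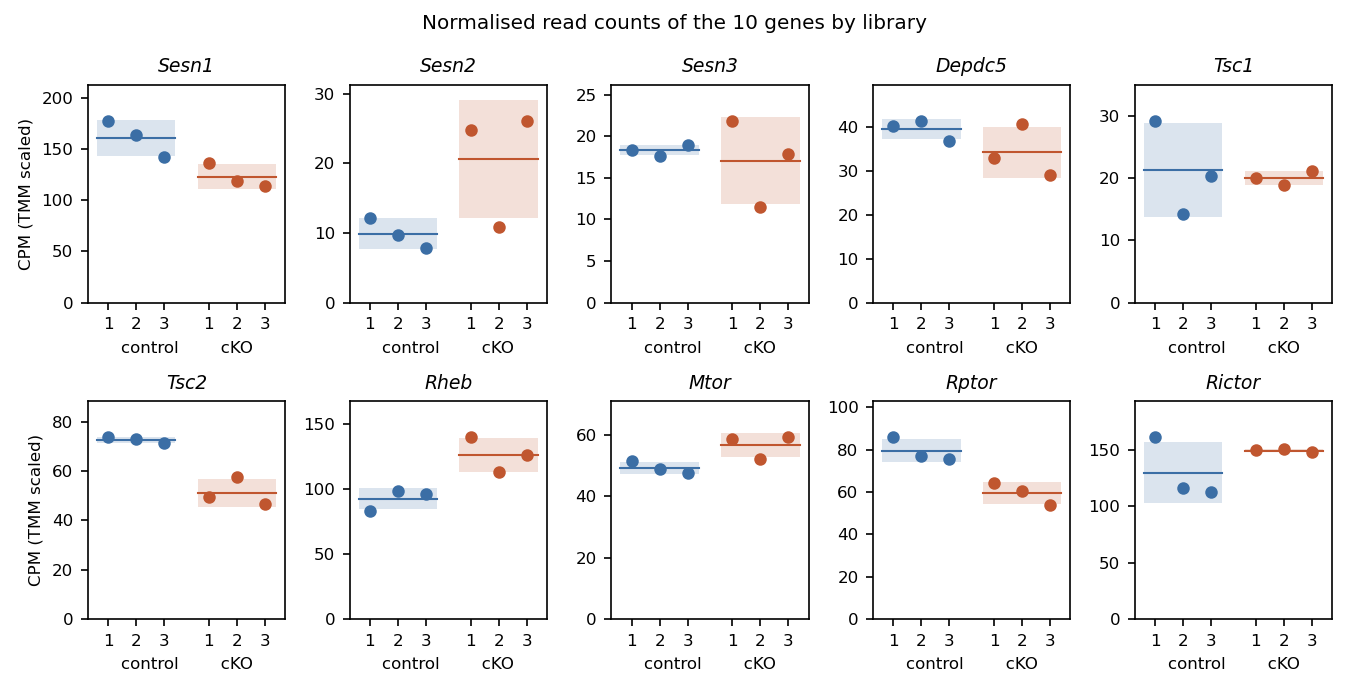
CPM (linear axis from 0, TMM scaled) of each of the 10 genes in every library, with control in blue and cKO in orange, library numbers on the horizontal axis, lines for the means and bands for ± S.D. (n = 3 per genotype). The groups stand apart for Sesn1, Tsc2, Rheb, Mtor and Rptor, while Sesn2 has 2 cKO libraries at 24.9 and 26.1 CPM and 1 among the controls.

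Sesn1 (ENSMUSG00000038332, chromosome 10, 41809935 to 41908424, plus strand), a p53 and FOXO target, was the sestrin with the highest level per length in every library. It was at 178, 163 and 142 CPM in the control libraries and at 137, 118 and 114 CPM in the libraries labelled cKO. The groups did not overlap, although the lowest control and the highest cKO library lay close together. The means were 161 ± 17.9 and 123 ± 12.1 CPM (S.D., n = 3), and the log2 fold change was -0.39 (SE 0.13, 95% interval -0.68 to -0.10). The difference missed the threshold (edgeR adjusted p = 0.0792) and did so under all 13 alternative settings (other scalings, tests and filters, a replicate block and each library left out in turn), where the adjusted p lay between 0.0518 and 0.262.

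Sesn2 (ENSMUSG00000028893, chromosome 4, 132492032 to 132510501, minus strand) encodes a leucine sensor and is known as an ATF4 and p53 target. Its counts were 12.2, 9.71 and 7.800 CPM in the control libraries and 24.9, 10.8 and 26.1 CPM in the libraries labelled cKO. cKO libraries 1 and 3 were above every control, and cKO library 2 lay within the control range. The means were 9.898 ± 2.198 and 20.6 ± 8.49 CPM, and the estimate was the largest of the 10 in size, at a log2 fold change of 1.06 (SE 0.33, 95% interval 0.34 to 1.79, edgeR adjusted p = 0.0638). Without cKO library 2 it was 1.36 (edgeR adjusted p = 0.0212) and without control library 1 it was 1.23 (edgeR adjusted p = 0.0453), so the call depended on single libraries. DESeq2 called Sesn2 (log2 fold change 1.07, adjusted p = 0.0135), as did edgeR with no filter on low counts (1.05, adjusted p = 0.0376).

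Sesn3 (ENSMUSG00000032009, chromosome 9, 14275067 to 14333101, plus strand), a FOXO target, was at 18.4, 17.7 and 18.9 CPM in the control libraries and at 21.9, 11.4 and 17.9 CPM in the libraries labelled cKO. The controls lay close together, and the cKO libraries spread to both sides of them, with cKO library 2 lowest. The log2 fold change was -0.10 (SE 0.24, 95% interval -0.63 to 0.43, edgeR adjusted p = 0.827). The sestrins thus had estimates in both directions, and none of the 3 was called by edgeR. At an unadjusted p below 0.05 there were Sesn1 and Sesn2, against 27.9% of all genes.

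Set beside one another per length, the authors' FPKM values put Sesn1 far above the other sestrins. Its share of the summed sestrin FPKM was 90.6%, 91.0% and 89.0% in the control libraries and 82.8%, 86.8% and 78.2% in the libraries labelled cKO. Sesn2 made up 4.69%, 4.11% and 3.71% in controls and 11.4%, 6.07% and 13.7% in cKO. Both shares stood apart between the genotypes, while that of Sesn3 (3.72 ± 0.535 FPKM in controls) overlapped. The ratio of Sesn2 to Sesn1 counts, which involves no length, was 0.0686, 0.0595 and 0.0549 in controls and 0.182, 0.0915 and 0.230 in cKO. All 3 cKO libraries were above all controls in that ratio, with cKO library 2 nearest to them. These shares and ratios were chosen after the values were seen and were not tested.

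**Figure D2:**
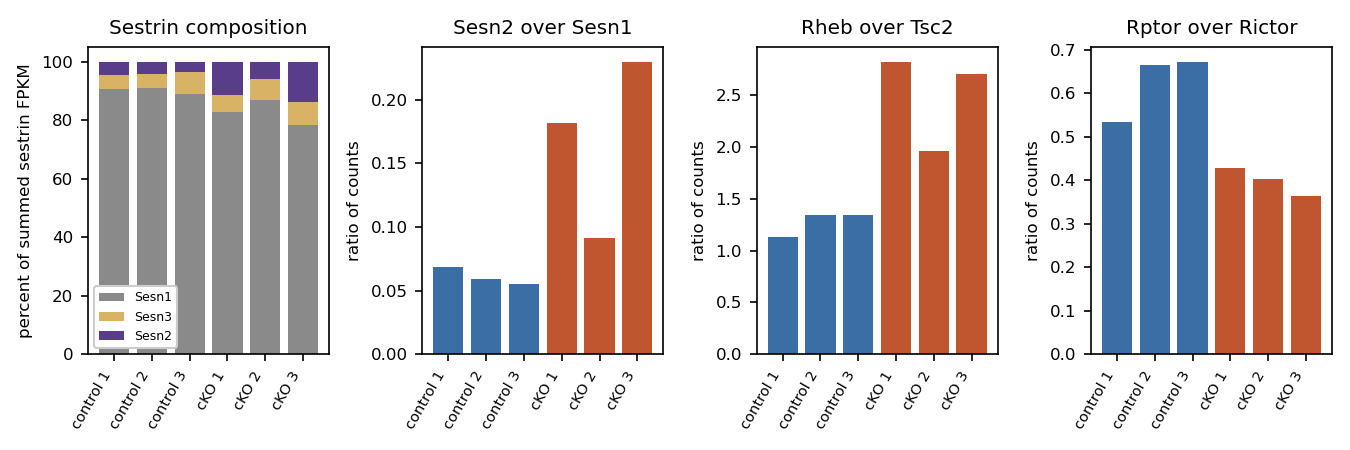
The first panel shows the percent of summed sestrin FPKM from Sesn1, Sesn2 and Sesn3 in each library, and the other panels show ratios of raw counts per library (bars, axes from 0) for Sesn2 to Sesn1, Rheb to Tsc2 and Rptor to Rictor. Sesn1 makes up 78.2% to 91.0% of the sestrin total in every library, and each of the 3 count ratios stands apart between the genotypes. For Rheb to Tsc2 this follows from the single genes, which stand apart in opposite directions.

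Of 5 genes of factors known to induce sestrins, Foxo1 alone passed the test, against 10.4% of all genes called. Foxo1 rose, from 118, 93.6 and 95.8 CPM in the control libraries to 148, 132 and 179 CPM in the libraries labelled cKO (log2 fold change 0.58, SE 0.15, edgeR adjusted p = 0.0366). This call was lost when control library 2, control library 3, cKO library 1 or cKO library 3 was left out (edgeR adjusted p = 0.129, 0.103, 0.0917 and 0.164). Atf4 was at 242, 172 and 198 CPM in controls and 269, 248 and 314 CPM in cKO, with no overlap (log2 fold change 0.44, edgeR adjusted p = 0.0811). Trp53, the p53 gene, stood at 0.21 on the log2 scale (edgeR adjusted p = 0.3496). Foxo3 stood at 0.07 (edgeR adjusted p = 0.811) and the oxidative stress factor gene Nfe2l2 at -0.09 (edgeR adjusted p = 0.8398). DESeq2 called Foxo1 and Atf4, 2 of the 5, against 16.7% of the genes it tested. Without control library 1, edgeR called Atf4 too (0.58, adjusted p = 0.0130).

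For each sestrin, the genes whose log2 CPM followed it most closely over the 6 libraries are given as a description, among 9201 genes with a mean of at least 5 CPM. Sesn1 was followed by Bbx (Pearson's r = 0.997), Evi5l (0.992) and Wscd1 (0.992). Sesn2 was followed by Ttc1 (0.992), Batf (0.991) and Mtor (0.986). Sesn2 and Mtor were both lowest among the cKO libraries in cKO library 2. Sesn3 was followed by Smad5 (0.994), Smap1 (0.975) and Trafd1 (0.975). These genes share the 6 libraries and their depth with the sestrins, and they were picked as the highest of a long search.

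Depdc5 (ENSMUSG00000037426, chromosome 5, 32863701 to 32994236, plus strand), the GATOR1 subunit that contacts the Rag GTPases, was at 40.1, 41.4 and 36.9 CPM in the control libraries and at 32.99, 40.5 and 28.98 CPM in the libraries labelled cKO. cKO library 2 lay among the controls and the others lay below them. The log2 fold change was -0.21 (SE 0.16, 95% interval -0.57 to 0.16, edgeR adjusted p = 0.4500). Of its partners in GATOR1, Nprl2 stood at -0.20 on the log2 scale (edgeR adjusted p = 0.533). Nprl3 was at 19.6, 23.5 and 28.9 CPM in controls and 16.5, 17.7 and 9.83 CPM in cKO, which did not overlap, at -0.71 (edgeR adjusted p = 0.09801). None of the 6 listed GATOR1 and KICSTOR partners and none of the 5 GATOR2 genes was called by edgeR or by DESeq2. At an unadjusted p below 0.05 there was 1 in each list, against 27.9% of all genes.

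Tsc2 (ENSMUSG00000002496, chromosome 17, 24595816 to 24632630, minus strand) encodes the subunit of the TSC complex that inactivates Rheb. It was at 73.7, 73.2 and 71.3 CPM in the control libraries and at 49.5, 57.6 and 46.5 CPM in the libraries labelled cKO. The controls were nearly identical, and every cKO library was below them. Tsc2 fell by 0.51 on the log2 scale (SE 0.13, 95% interval -0.80 to -0.21, edgeR adjusted p = 0.0384), to 0.704 of the control level, with means of 72.7 ± 1.31 and 51.2 ± 5.75 CPM (S.D., n = 3). The estimate stayed between -0.60 and -0.44 under 13 alternative settings and was called in 9 of them. The call was lost without control library 2 (edgeR adjusted p = 0.116), control library 3 (0.0863), cKO library 1 (0.121) or cKO library 3 (0.162). It was kept without control library 1 (-0.50, edgeR adjusted p = 0.0317). Pkd1 lies on the opposite strand, and its exons share 693 bases with those of Tsc2, or 7.20% of the Tsc2 exon sequence. The strand setting of the counting was not stated in the labels or methods, so reads from the shared bases cannot be told apart. Pkd1 was at 23.2, 30.3 and 20.8 CPM in controls and 21.2, 14.4 and 17.7 CPM in cKO, with overlap (log2 fold change -0.48, edgeR adjusted p = 0.175).

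Tsc1 (ENSMUSG00000026812, chromosome 2, 28641228 to 28691167, plus strand), the partner that stabilises Tsc2, was at 29.2, 14.2 and 20.3 CPM in the control libraries and at 19.98, 18.8 and 21.2 CPM in the libraries labelled cKO. Here the controls were the more scattered group and enclosed all cKO libraries. The log2 fold change was -0.08 (SE 0.25, 95% interval -0.64 to 0.47, edgeR adjusted p = 0.865), and it turned to 0.21 (edgeR adjusted p = 0.542) without control library 1. Whether the change of Tsc2 differed from that of Tsc1 was not tested, and the ratio of their counts overlapped between the genotypes. The third subunit gene, Tbc1d7, stood at 0.26 on the log2 scale (edgeR adjusted p = 0.606).

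Rheb (ENSMUSG00000028945, chromosome 5, 24802823 to 24842624, minus strand), the activator of mTORC1 on which the TSC complex acts, was at 83.5, 98.5 and 96.2 CPM in the control libraries and at 139.8, 113 and 126 CPM in the libraries labelled cKO. All cKO libraries were above all controls, with cKO library 2 again nearest to them. The means were 92.7 ± 8.06 and 126 ± 13.4 CPM, with a log2 fold change of 0.44 (SE 0.13, 95% interval 0.16 to 0.73) that lay just outside the threshold (edgeR adjusted p = 0.0531). It passed in 5 of 13 alternatives, with log2 fold changes of 0.44 to 0.46: RLE scaling (adjusted p = 0.0492), total counts (0.0436), DESeq2 (0.0165), limma-voom (0.0480) and a filter at a mean of 5 CPM (0.0379). In per-length terms Rheb was at 51.6 ± 3.800 FPKM in controls, second to Sesn1 at 60.8 ± 7.76 with overlapping libraries. That rank depends on the length assumed for Sesn1, 2.62 to 2.65 kb against 3809 bases in its longest coding transcript. In cKO Rheb was at 71.2 ± 7.44 FPKM and stood above Sesn1 at 46.8 ± 4.79 in every library. The ratio of Rheb to Tsc2 counts was 1.13, 1.35 and 1.35 in controls and 2.83, 1.96 and 2.71 in cKO. That ratio was chosen after the values were seen and was not tested. It had to stand apart, since all cKO libraries were above all controls for Rheb and below them for Tsc2.

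**Figure D3:**
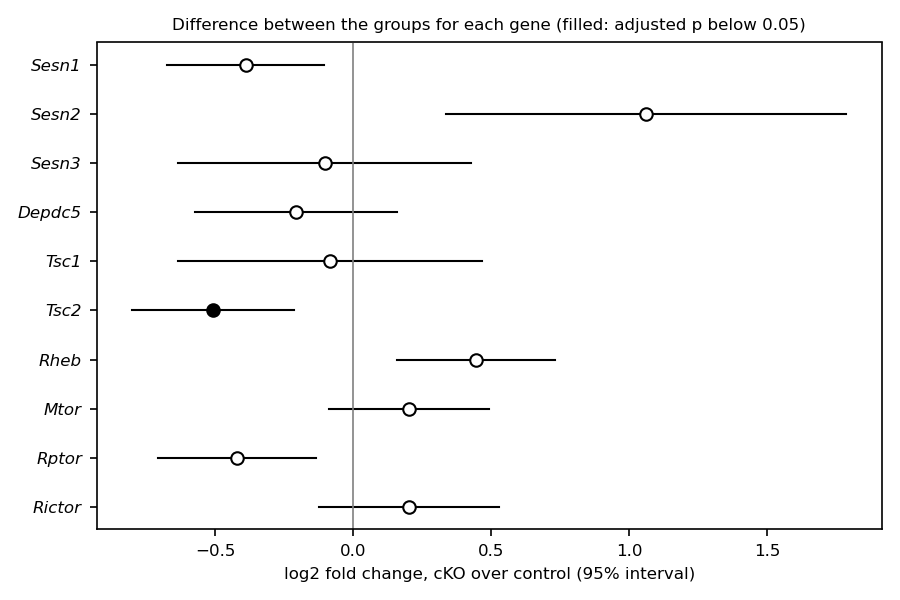
Log2 fold change (cKO over control) of the 10 genes from edgeR, with 95% intervals as bars. A filled point marks an adjusted p below 0.05. Tsc2 is the only filled point, at -0.51, and Sesn2, at 1.06, has the widest interval.

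Mtor (ENSMUSG00000028991, chromosome 4, 148448611 to 148557683, plus strand), the kinase of both complexes, was at 51.4, 48.8 and 47.5 CPM in the control libraries and at 58.7, 52.04 and 59.1 CPM in the libraries labelled cKO. The groups did not overlap, but the highest control and the lowest cKO library lay close together. The log2 fold change was 0.20 (SE 0.13, 95% interval -0.09 to 0.49, edgeR adjusted p = 0.346), and no alternative called it.

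Rptor (ENSMUSG00000025583, chromosome 11, 119602905 to 119899576, plus strand), the mTORC1 scaffold that brings substrates to the kinase, was at 85.9, 76.9 and 75.8 CPM in the control libraries and at 64.1, 60.4 and 53.8 CPM in the libraries labelled cKO. Every cKO library was below every control. The means were 79.5 ± 5.53 and 59.4 ± 5.25 CPM, and the log2 fold change of -0.42 (SE 0.13, 95% interval -0.71 to -0.13) missed the threshold (edgeR adjusted p = 0.0638). DESeq2 alone of the 13 alternatives called it (-0.41, adjusted p = 0.0407). The antisense gene Rptoros shares 84 bases with its exons, 0.624% of them.

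Rictor (ENSMUSG00000050310, chromosome 15, 6708379 to 6800401, plus strand), the mTORC2 scaffold, was at 161, 116 and 113 CPM in the control libraries and at 149.7, 150.1 and 148 CPM in the libraries labelled cKO. The cKO libraries were close together, and control library 1 was above all of them while the other controls were below. The log2 fold change was 0.20 (SE 0.15, 95% interval -0.12 to 0.53, edgeR adjusted p = 0.409). Without control library 1 it was 0.38 and passed (edgeR adjusted p = 0.0243), as 2030 genes in all then did against 1191 with every library. The ratio of Rptor to Rictor counts was 0.534, 0.665 and 0.673 in controls and 0.428, 0.403 and 0.364 in cKO, which did not overlap. The ratio of Mtor to Rptor counts was 0.598, 0.634 and 0.627 in controls and 0.916, 0.861 and 1.10 in cKO. It had to stand apart, since all cKO libraries were above all controls for Mtor and below them for Rptor. Neither ratio was tested, since both were chosen after the values were seen.

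On the per-length scale, the order of the 10 genes in control libraries ran from Sesn1 and Rheb, at 60.8 ± 7.76 and 51.6 ± 3.800 FPKM (S.D., n = 3), down to Sesn3 and Sesn2, at 3.72 ± 0.535 and 2.83 ± 0.673. Between them came Mtor (16.7 ± 3.17), Rictor (13.9 ± 3.11), Tsc2 (13.3 ± 0.674), Rptor (13.1 ± 1.27), Depdc5 (11.99 ± 1.08) and Tsc1 (8.67 ± 3.48). Each neighbour in that middle run overlapped the next, whereas Rheb stood above Mtor and Tsc1 above Sesn3 in every control library. In cKO libraries Rheb came first and Sesn1 second, followed by Mtor (20.9 ± 1.06), Rictor (16.1 ± 0.248), Depdc5 (12.3 ± 4.32), Tsc2 (9.72 ± 1.12), Rptor (9.68 ± 0.972) and Tsc1 (8.497 ± 0.7497). Rheb, Sesn1 and Mtor were each apart from the next, as was Tsc1 from Sesn2 (5.96 ± 2.43). The run from Rictor to Tsc1 overlapped from neighbour to neighbour, and Sesn2 and Sesn3 (3.93 ± 0.465) overlapped. These orders rest on the lengths that FPKM assumes. Those were 2.59 to 3.51 kb for Mtor, 2.04 to 2.60 for Tsc1, 2.37 to 3.65 for Depdc5 and 2.62 to 2.65 for Sesn1. The longest coding transcripts of these genes have 8564, 7702, 8216 and 3809 bases. Longer lengths would lower those levels, so the order is not settled.

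Elsewhere in the pathway, 73 further genes were listed by role, 70 could be tested, 3 rose and 4 fell, which is 7 of 70 against the 10.4% of all genes. Their estimates divided into 34 higher and 36 lower, with a median log2 fold change of -0.01. Groups stood apart for 12 higher and 16 lower of the 70, against 15.7% and 17.3% of all genes. In the annotation's KEGG list for mTOR signalling, which includes 8 of the 10 genes, 120 of 159 could be tested. Of these 5 rose and 9 fell, against 4.47% higher and 5.89% lower of all genes tested. The median log2 fold change of that list was -0.02.

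Of the genes upstream of the TSC complex, Ddit4 (also called Redd1), a stress-induced inhibitor of mTORC1, had 49.4, 43.1 and 51.4 CPM in the control libraries and 19.9, 18.5 and 20.5 CPM in the libraries labelled cKO. All cKO libraries were below all controls, and Ddit4 fell by 1.29 on the log2 scale (SE 0.15, edgeR adjusted p = 0.00349). The AMPK subunit genes Prkab2 and Prkaa1 both rose. AMPK is an energy sensor that activates Tsc2 and restrains Raptor. Prkab2 was at 6.53, 3.44 and 5.98 CPM in controls and 20.7, 9.89 and 16.7 CPM in cKO (log2 fold change 1.57, SE 0.34, edgeR adjusted p = 0.0195). Prkaa1 was at 28.7, 26.4 and 18.7 CPM in controls and 44.8, 36.7 and 47.02 CPM in cKO (log2 fold change 0.80, SE 0.19, edgeR adjusted p = 0.0293). They were the 2 called of 11 tested AMPK and LKB1 genes, against 10.4% of all genes. The Prkab2 call was lost without control library 2, cKO library 1 or cKO library 3 (edgeR adjusted p = 0.0635, 0.0790 and 0.0887). The Prkaa1 call was lost without these or control library 3 (edgeR adjusted p of 0.0733 to 0.131). On the amino acid side, the GTPase gene Rragc fell, from 27.7, 43.3 and 40.4 CPM in controls to 22.4, 22.9 and 12.2 CPM in cKO (log2 fold change -0.96, SE 0.26, edgeR adjusted p = 0.0446). It was the 1 called of 11 tested Rag and Ragulator genes, against 10.4% of all genes. DESeq2 called 2 of the 11, against 16.7% of the genes it tested. The Rragc call was kept without control library 1 and lost without any other single library (edgeR adjusted p of 0.0630 to 0.143). The arginine sensor gene Castor1 had a mean below 1 CPM in both genotypes, and its log2 fold change was 1.07 (edgeR adjusted p = 0.561).

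Among the other subunits and assembly factors of the mTOR complexes, 0 of 9 were called by edgeR or DESeq2. At an unadjusted edgeR p below 0.05 there were 3 of the 9, against 27.9% of all genes. Mlst8, a subunit of both complexes, was higher without overlap at 0.56 on the log2 scale (edgeR adjusted p = 0.0975). Deptor, an inhibitory subunit, was lower without overlap at -0.75 (edgeR adjusted p = 0.0858), as was the mTORC2 subunit gene Mapkap1 at -0.29 (edgeR adjusted p = 0.134). Akt1s1, the gene of the mTORC1 inhibitor PRAS40, stood at 0.07 on the log2 scale (edgeR adjusted p = 0.908).

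Of the 16 effectors of mTORC1, Tfe3 rose and Ulk2 fell, against 10.4% of all genes called. DESeq2 called 3 of the 16, against 16.7% of the genes it tested. Tfe3, a transcription factor of lysosomal genes that mTORC1 holds in the cytoplasm, was at 13.3, 14.2 and 9.39 CPM in controls and 30.1, 18.8 and 27.7 CPM in cKO (log2 fold change 1.05, SE 0.24, edgeR adjusted p = 0.0239). Ulk2, a kinase that starts autophagy, was at 68.4, 58.9 and 58.9 CPM in controls and 45.5, 44.4 and 43.9 CPM in cKO (log2 fold change -0.48, SE 0.13, edgeR adjusted p = 0.0463), and it was called in 3 of 13 alternatives. Leaving out any single library took the Ulk2 call away (edgeR adjusted p of 0.0510 to 0.160). The S6 kinase gene Rps6kb1 stood at -0.27 on the log2 scale (edgeR adjusted p = 0.219), and the translation repressor gene Eif4ebp1 stood at 0.48 (edgeR adjusted p = 0.273). Of 5 genes of mTORC2 substrates, edgeR called Sgk1 alone, against 10.4% of all genes. Sgk1 fell, from 119, 151 and 151 CPM in controls to 69.2, 74.9 and 70.5 CPM in cKO (log2 fold change -0.97, SE 0.13, edgeR adjusted p = 0.00408). DESeq2 called 3 of these 5, Akt1 and Akt2 besides Sgk1, against 16.7% of the genes it tested. Ddit4 and Sgk1 were called under all 13 alternatives, Prkab2 under 10, Prkaa1 and Tfe3 under 9 and Rragc under 8. With an absolute log2 fold change above 1 asked for as well, Ddit4, Prkab2 and Tfe3 remained called, and Sgk1, Rragc, Prkaa1 and Ulk2 did not. The Tfe3 call was lost without control library 2, control library 3, cKO library 1 or cKO library 3 (edgeR adjusted p = 0.0513, 0.0680, 0.0892 and 0.108). Messenger RNA levels give no measure of the activity of mTORC1 or mTORC2.

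**Figure D4:**
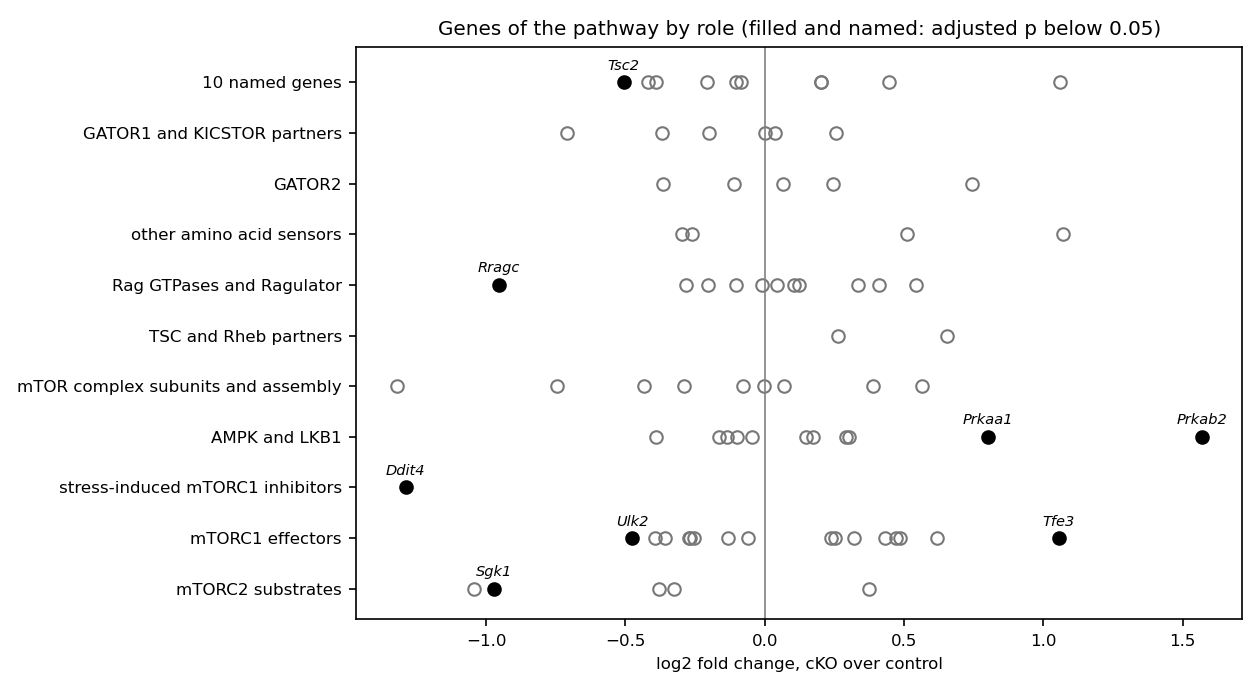
Log2 fold change (cKO over control) of the tested genes of the pathway lists, arranged by role, with filled points for an edgeR adjusted p below 0.05. Ddit4, at -1.29, and Prkab2, at 1.57, are the filled points farthest from 0 on either side.

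**Figure D5:**
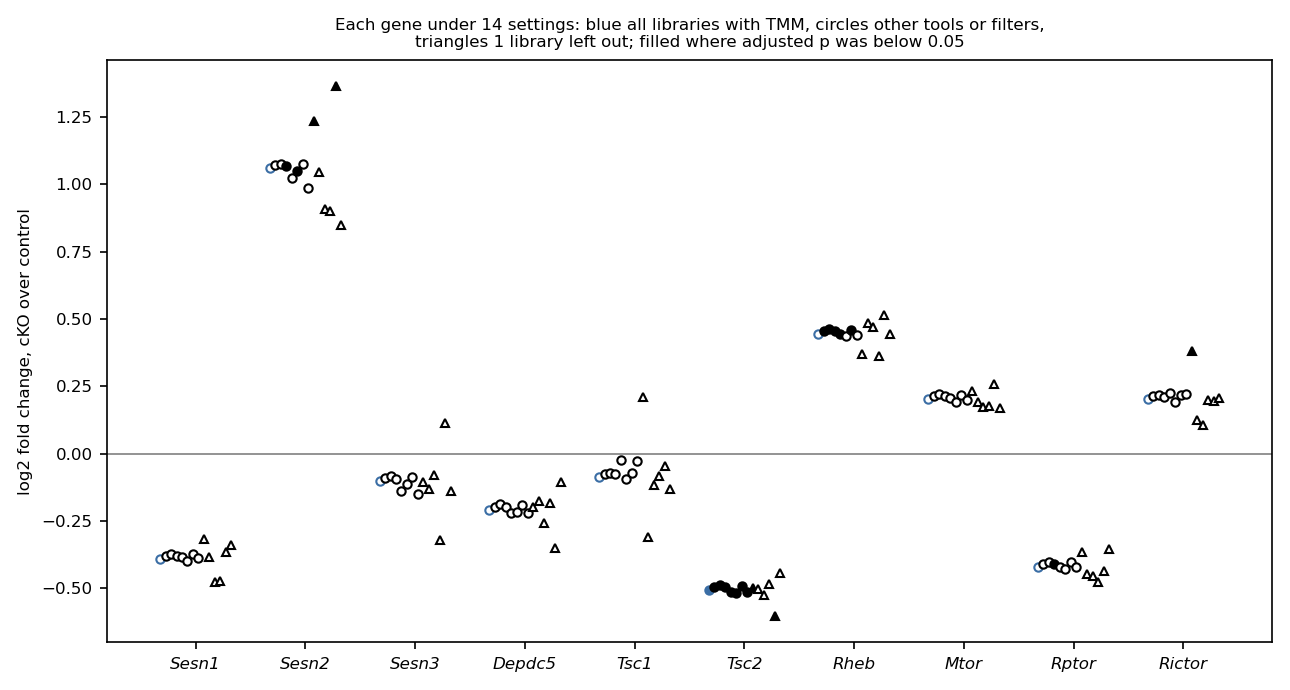
Log2 fold change (cKO over control) of the 10 genes under the analysis as reported and 13 alternatives, with filled points for an adjusted p below 0.05. Tsc2 stays between -0.60 and -0.44 throughout, and Sesn3 and Tsc1 cross 0 without cKO library 2 and control library 1, respectively.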

How the data were processed

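Sorted DP thymocytes from 3 control and 3 Paxbp1 cKO samples were profiled by RNA-seq. The deposited table held whole-number read counts per gene, which the authors made before deposit and which may be rounded estimates, since the submitters' processing notes name RSEM along with fastp (0.18.0), Bowtie2 (2.2.8), HISAT2 and StringTie. For aligner settings, strand use and genome build, nothing is given in the sources used here. The authors also deposited FPKM values, used here only for levels between genes. Columns with the authors' group means, fold changes and p-values were not used, and of the annotation columns only the KEGG term was.

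Counts were tested with edgeR 4.0.16 in R 4.3.3 (quasi-likelihood F-test, TMM scaling, filterByExpr with a minimum count of 10 and total of 15, genotype as the only term, Benjamini-Hochberg adjustment over 11488 genes, call at 0.05). The fit was tested on simulated data. Alternatives were DESeq2 1.42.0, limma-voom (limma 3.58.1), other scalings and filters, a replicate block, a log2 fold limit of 1 and leaving out each library. The labels do not say that libraries came from separate mice, so p-values measure the spread between these libraries, which may be technical. The closest libraries of a group differed by 19.1 times sampling noise (by chi-square), so none was counted as a repeat.

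The 10 genes and the lists were chosen with earlier results of these data known. Named were the 10 genes, 11 fixed pathway genes, further pathway genes at an adjusted p below 0.05 (at most 12), 5 inducers of sestrins and the 3 genes most like each sestrin. Gene positions are from GENCODE release M21 (GRCm38) and start regions from RefSeq (GRCm38.p6), matched by symbol for 10 of 10 genes. Protein sequences were not used here.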

Additional observations from a re-analysis of the deposited data

How the results depend on the processing

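Tsc2 was lower under all 13 alternatives but lost its call when any of 4 single libraries was left out, and Sesn2, Rheb, Rptor and Rictor gained a call under some. Directions held for 8 of the 10 genes. Sesn3 turned to 0.11 (edgeR adjusted p = 0.785) without cKO library 2, and Tsc1 turned to 0.21 without control library 1. Without single libraries Sesn3 ranged from -0.32 to 0.11 and Tsc1 from -0.31 to 0.21. The count of the 10 genes called higher, 0 as reported, was 1 under RLE scaling, total counts, limma-voom, no filter and the 5 CPM filter, 2 under DESeq2, and 0 to 2 when single libraries were left out. The count called lower, 1 as reported, was 2 under DESeq2, 0 with the log2 fold limit of 1, and 0 to 1 without single libraries. Of the other pathway genes, 3 were called higher as reported, 5 under DESeq2 and 0 to 9 without single libraries. Called lower were 4 as reported, 1 with the fold limit and 2 to 6 without single libraries. Over all genes, 514 were higher and 677 lower as reported. DESeq2 called 943 higher, the fold limit left 176 higher and 141 lower, and leaving out single libraries gave 42 to 1000 higher and 78 to 1030 lower, the fewest without cKO library 3 and the most without control library 1. With the replicate number as a block, 1238 genes were called, 1028 of them shared with the 1191 reported, and of the 10 genes again Tsc2 alone (-0.51, edgeR adjusted p = 0.0489). Deviations of same-numbered libraries correlated at 0.045, 0.038 and -0.030, and control library 2 correlated at 0.040 with cKO library 3. Deviations from a mean of 3 libraries are tied to one another, so these values cannot decide whether libraries were paired. The labels name no pairs, and none was assumed. Scaling moved the median log2 fold change of all genes by less than 0.1. With 3 libraries a genotype, the 95% intervals of Sesn3, Depdc5, Tsc1, Mtor and Rictor included 0, and changes of the sizes inside them were not excluded. The cause of these shifts was not tested.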

Other observations

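Dividing CPM, without TMM scaling, by FPKM gives the transcript length, in kilobases, that each FPKM value assumes. It was nearly constant over the libraries for Sesn1 (longest over shortest 1.01), and varied less still for Sesn2, Rheb and Rictor. For Sesn3 it was 5.25, 5.29 and 4.30 in the control libraries and 6.10, 3.13 and 3.999 in the libraries labelled cKO, a ratio of 1.95. For Depdc5 it was 3.07, 3.65 and 3.14 in controls and 3.40, 2.37 and 2.93 in cKO, a ratio of 1.54. In cKO library 2 Depdc5 therefore stood at 17.3 FPKM, well above the other cKO libraries at 9.79 and 9.87, while its CPM there lay among the controls. Over the 9321 tested genes with at least 1 FPKM in every library, the median ratio was 1.04 and 14.3% exceeded 1.2. Levels of Sesn1, Sesn3, Depdc5, Mtor and Tsc1 between genes depend on that length, and the tests on counts do not use it.

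Control library 1 differed from control libraries 2 and 3 by 54.0 and 64.9 times sampling noise, against 19.1 between the latter. It was the highest control for Sesn1, Sesn2, Tsc1, Tsc2, Mtor, Rptor and Rictor. For Tsc2 the margin was slight, at 73.7 CPM against 73.2 CPM in control library 2. Depdc5 and Rheb were highest in control library 2, and Sesn3 was highest in control library 3. How often control library 1 was the highest control over all genes was not counted. The Paxbp1 level of control library 1, 40.1 CPM, lay among the libraries labelled cKO. Chosen after the values were seen, Akt1, the gene of an mTORC2 substrate kinase, was at 27.4, 60.6 and 75.7 CPM in the control libraries and at 27.1, 30.8 and 21.8 CPM in the libraries labelled cKO, so control library 1 lay among the cKO libraries (log2 fold change -1.04, edgeR adjusted p = 0.0578). Akt1 was called in 4 of 13 alternatives, DESeq2 and the one without control library 1 among them, with adjusted p from 0.00229 to 0.207. Rb1cc1, which encodes an autophagy scaffold, was likewise chosen after the values were seen. It was at 236, 141 and 118 CPM in controls and 197, 202 and 191 CPM in cKO, with control library 1 above every other library. Its log2 fold change was 0.25 (edgeR adjusted p = 0.485).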
